A study of Mus musculus with 4 samples.

Results

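The genes described here are 37 marker genes of leukocytes and macrophages, measured in cultured mouse ureters to judge the immune cells that the explants still held. They were chosen by name, with earlier results of these data known. They comprised pan-leukocyte genes, macrophage identity genes, scavenger and pattern receptors, Fc receptors with their adaptors, MHC class II, complement C1q and the phagocyte NADPH oxidase. All 37 were among the 29924 gene names on the array, with 47 probes, and 36 could be tested among 20231 genes. The exception was Cd163, a hemoglobin scavenger receptor, which was well above background in 1 of the 8 pools. Of the 36, 35 were well above background in all 8 pools, and Fcgr1 was the exception.

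Ureters of NMRI mice were explanted at birth and cultured for 8 d with 2 µM purmorphamine, an agonist of the SHH signal transducer Smoothened, or with its solvent DMSO. Control ureters were labelled Pparg (fl/?), and Pparg-cKO ureters Pax2-cre/+; Pparg (fl/fl), so that floxed Pparg alleles were common to both and the Cre line was not. Pax2-cre recombines in the nephric duct lineage, which forms the ureteric epithelium, whereas the RNA came from whole explants with all their cell types. Each of the 4 groups had 2 pools, a male pool as replicate 1 and a female pool as replicate 2, and each of the 4 two-color arrays paired DMSO with purmorphamine for a given genotype and sex, with the dyes exchanged between the sexes. The pool sizes of these cultures are not given in the sources used here, and p-values cover only the spread between these pools. Values in pairs below are given in the order male, female.

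Macrophages seed organs before birth and live in the connective tissue of the urinary tract, where they take up debris and sense microbes. PU.1, encoded by Spi1, is the transcription factor that drives myeloid genes and binds a GAGGAA core, and CSF1R is the receptor for the growth factors that keep macrophages alive. The surface of macrophages carries the mannose receptor (Mrc1), scavenger receptors and Fc receptors, and Fcer1g and Tyrobp encode ITAM adaptors of surface receptors. Macrophages also secrete C1q, the recognition subunit of the classical complement pathway.

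Promoter sequence is shown for 4 members that fell with purmorphamine in both genotypes, Mrc1, Fcgr2b, C1qb and C1qc, as called members that include the largest falls and 2 neighbors of the C1q cluster. The sequences are the 250 bases before the RefSeq transcript start in GRCm38.p6, written 5′ to 3′ on the strand of the gene. Capitals mark GAGGAA or, where the core lies on the opposite strand, TTCCTC. The regions are chr2:14229164-14229413 (plus strand) for Mrc1, chr1:170976072-170976321 (minus) for Fcgr2b, chr4:136886201-136886450 (minus) for C1qb and chr4:136892915-136893164 (minus) for C1qc.
Mrc1: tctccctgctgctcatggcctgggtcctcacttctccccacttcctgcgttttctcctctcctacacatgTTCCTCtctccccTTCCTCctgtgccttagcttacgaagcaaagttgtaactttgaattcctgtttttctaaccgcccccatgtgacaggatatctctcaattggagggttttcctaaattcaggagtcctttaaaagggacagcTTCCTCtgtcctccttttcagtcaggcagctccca
Fcgr2b: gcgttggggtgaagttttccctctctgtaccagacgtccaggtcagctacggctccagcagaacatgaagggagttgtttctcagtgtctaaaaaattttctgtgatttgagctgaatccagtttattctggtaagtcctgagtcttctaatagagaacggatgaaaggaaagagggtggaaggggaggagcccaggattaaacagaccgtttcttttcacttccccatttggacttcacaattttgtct
C1qb: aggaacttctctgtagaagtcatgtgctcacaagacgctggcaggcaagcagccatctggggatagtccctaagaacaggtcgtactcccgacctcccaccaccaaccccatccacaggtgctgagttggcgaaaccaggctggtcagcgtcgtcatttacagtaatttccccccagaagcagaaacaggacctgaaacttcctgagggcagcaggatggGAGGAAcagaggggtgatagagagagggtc
C1qc: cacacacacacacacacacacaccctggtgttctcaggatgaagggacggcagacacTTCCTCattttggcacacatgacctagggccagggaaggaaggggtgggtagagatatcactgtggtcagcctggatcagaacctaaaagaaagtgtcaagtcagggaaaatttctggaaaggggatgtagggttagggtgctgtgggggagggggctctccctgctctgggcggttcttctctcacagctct
The Mrc1 region held 3 copies, the C1qb and C1qc regions 1 copy each and the Fcgr2b region 0. Over windows reaching from 250 bases before to 50 bases after the start, 15 of the 26 members with a RefSeq window had the core on either strand in at least 1 window, or 57.7%, beside 31.3% of 27025 genes. No window was given for Cd52, Spi1, Itgb2, Csf1r, Cd14, Msr1, Tyrobp, Cd74, H2-Ab1, C1qa and Ncf4. GAGGAA is a short motif, and a match describes the letters only.

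Across the arrays, 66.3% to 70.5% of spots were well above background per dye and 0 were saturated. The labelled tissue was seen in its genes: the mean log2 intensity of 12 urothelial genes was 14.2 to 14.91 over the 8 pools and that of 10 smooth muscle and mesenchyme genes 14.48 to 15.39. Ptch1, a target and receptor of SHH signaling, was higher with purmorphamine in control ureters (9.37 and 9.40 with DMSO, 10.21 and 10.56 with purmorphamine) and in Pparg-cKO ureters (8.54 and 8.83, then 10.17 and 10.45), with log2 differences of 1.00 (adjusted p = 0.046, limma) and 1.62 (adjusted p = 0.0144). The Pparg probe gave 14.79 and 15.31 in control and 15.55 and 15.58 in Pparg-cKO ureters with DMSO, and, as its place relative to the floxed exons was not determined, it does not check the deletion.

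Some members of every role but MHC class II fell with purmorphamine in explants of both genotypes. In control ureters 11 of 36 members fell and 0 rose at an adjusted p under 0.05 (limma on the ratio within arrays), where 0.919% of all genes fell and 0.282% rose. In Pparg-cKO ureters, on other arrays and in other animals, again 11 fell and 0 rose, beside 2.81% and 1.85% of all genes. The same 10 genes fell in both, which is 10 of the 11 in either genotype: Mrc1, Fcgr2b, Msr1, Fcgr3, C1qa, C1qb, C1qc, Aif1, Ncf4 and Cd53. Both genotypes shared a fit and an estimate of the spread of each gene, so their calls and the overlap are not independent. Cd14 was called in control ureters alone and Coro1a in Pparg-cKO ureters alone, and neither passed the test of a difference in response between the genotypes (adjusted p = 1 for both, limma). The median log2 difference of the members was -0.63 in control and -0.64 in Pparg-cKO ureters, against 0.02 and 0.00 over all genes, and 4.34% and 5.88% of all genes had lower values than these medians.

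The median was below 0 on every array. The median log2 ratio of the members was -0.67 on the control male, -0.57 on the control female, -0.67 on the Pparg-cKO male and -0.59 on the Pparg-cKO female array, where that of all genes was between -0.01 and 0.01. On all 4 arrays 29 of 36 members lay below 0, beside 20.4% of all genes. By sign alone, 34 members were lower in control ureters (46.8% of all genes) and 2 higher (53.2%), and 36 were lower (50.5%) and 0 higher (49.5%) in Pparg-cKO ureters. At an unadjusted p under 0.05 in limma, 27 were lower in each (9.84% and 12.4%) and 0 higher (9.78% and 9.86%). The filter of the study's methods, 1.5-fold in both pairs with an intensity over 100, took 17 of 35 members as lower in control ureters (3.69% of genes) and 13 in Pparg-cKO ureters (4.79%), and 0 as higher in either (2.76% and 3.88%). The levels of the DMSO and purmorphamine pools did not overlap for 25 members in control ureters, all lower with purmorphamine, beside 22% of all genes, and for 30 in Pparg-cKO ureters, beside 28.3%.

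These array values are relative to all RNA of a ureter explant, and fewer macrophages and less of each RNA per macrophage cannot be told apart. Genes of other tissue did not all lie on that side: the 10 smooth muscle and mesenchyme genes had median log2 differences of 0.62 and 0.79 in control and Pparg-cKO ureters, with 0 and 2 called higher (Tbx18 and Pdgfrb in Pparg-cKO ureters). For 6 endothelial genes they were 1.00 and 0.80, with 1 and 2 called higher (Tek in both, Cdh5 in Pparg-cKO ureters). The 12 urothelial genes lay on both sides, from -1.67 to 1.20 in control and from -1.40 to 2.14 in Pparg-cKO ureters, with medians of 0.23 and 0.26. Of these, 2 fell in each genotype, the basal keratin gene Krt15 (-1.67 and -1.40) and the epithelial adhesion gene Epcam (-0.96 and -0.81), while 0 rose in control and 5 in Pparg-cKO ureters. Over all genes 0.919% and 2.81% were called lower and 0.282% and 1.85% higher in control and Pparg-cKO ureters. The part of such shifts in the fall of the members was not tested. No member and no gene of the whole array fell at the threshold in either genotype when the processed signals of the scanner software were used in place of normexp and loess, with 24 and 22 members at an unadjusted p under 0.05 and medians of -0.65 and -0.64. In control ureters 0 members and 0 genes of the whole array were called lower when dim probes were kept in the test (25 members at an unadjusted p under 0.05, limma). With either control array left out, which leaves 1 array of that genotype, the members' median stayed between -0.67 and -0.57. The calls of the members were then lost, as were nearly all others. In Pparg-cKO ureters most of the members' calls were lost without the male or the female array of that genotype. The members' median there stayed between -0.67 and -0.59.

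**Figure D1:**
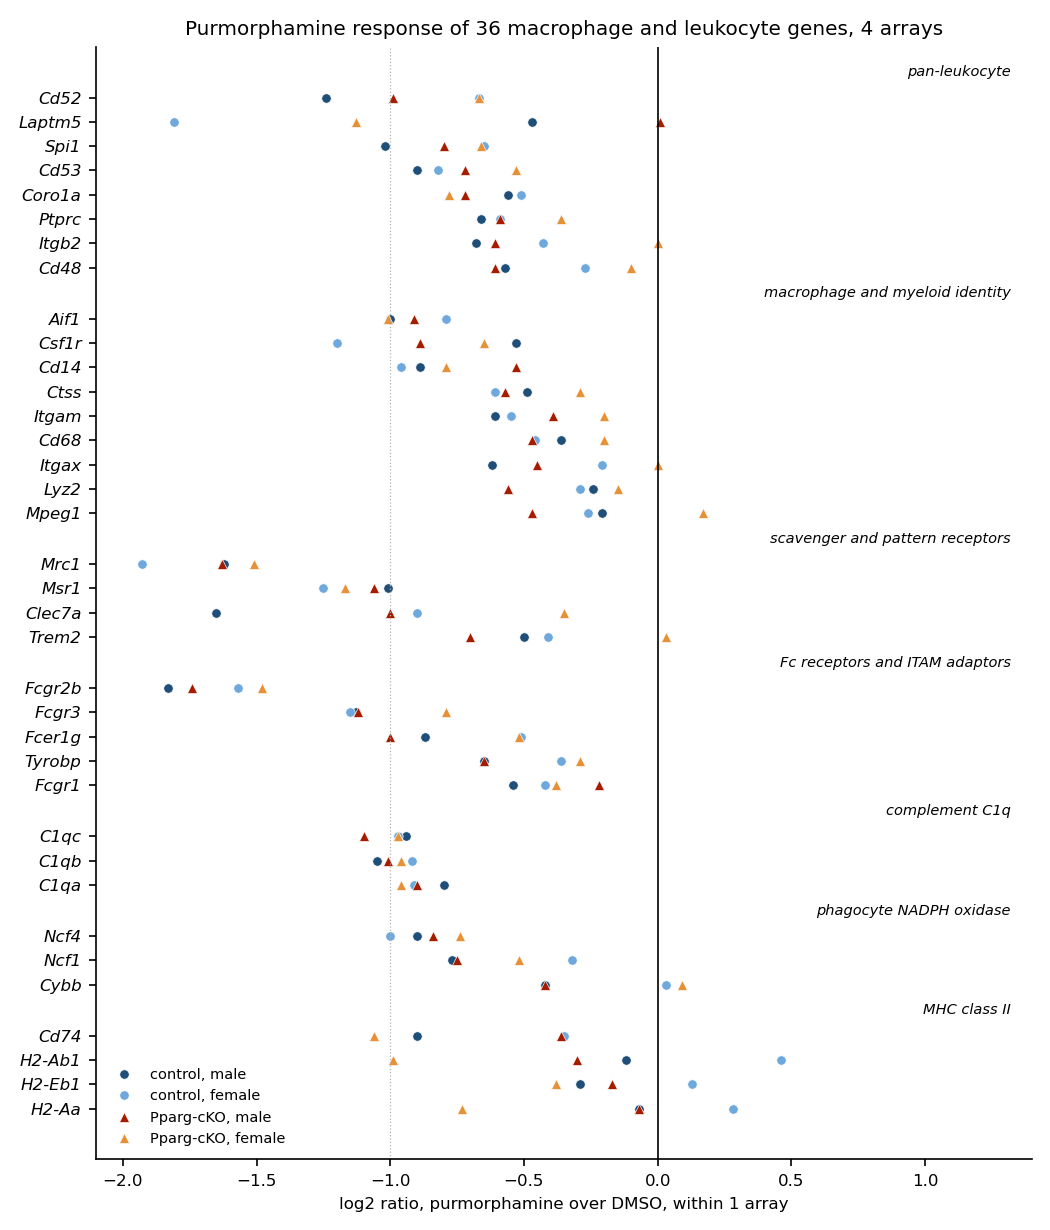
Log2 ratio of purmorphamine over DMSO (x axis) for the 36 members tested (y axis, grouped by role), with a point for each of the 4 arrays. Circles are control and triangles Pparg-cKO arrays, dark for male and light for female. Points of Mrc1, Fcgr2b and Msr1 lie at or below -1 on every array. Cybb, Mpeg1, Trem2, Laptm5 and the MHC class II genes other than Cd74 have at least 1 array above 0.

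**Figure D2:**
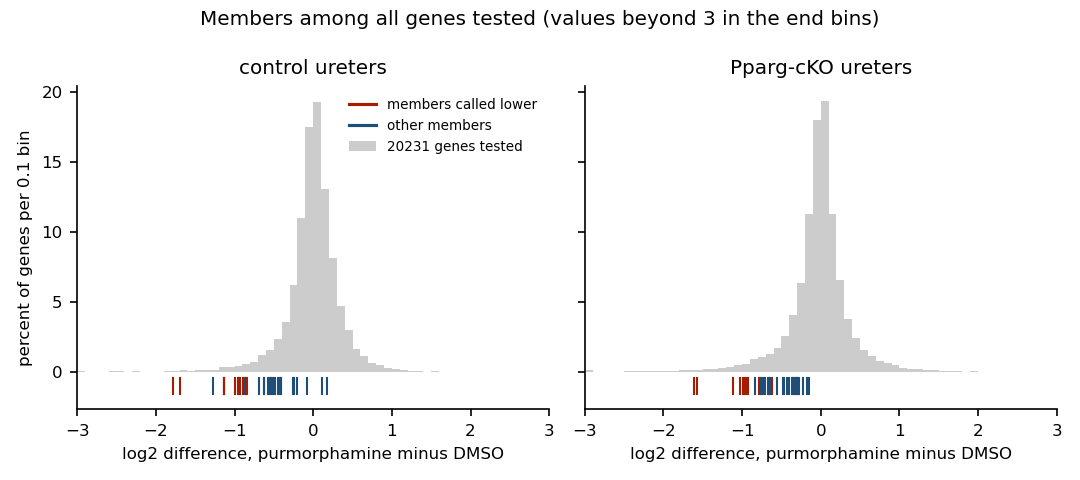
Percent of the 20231 genes tested per bin of log2 difference between purmorphamine and DMSO (gray bars), for control (left) and Pparg-cKO ureters (right). Ticks under the bars are the members, red where called lower and blue otherwise, and they lie mostly to the left of the peak at 0.

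The scavenger and pattern receptors held the largest fall in control ureters, that of Mrc1, which came after Fcgr2b in Pparg-cKO ureters. Mrc1, the mannose receptor CD206 that marks tissue-resident macrophages, stood at log2 intensities of 14.71 and 14.48 in control pools with DMSO and at 13.09 and 12.55 with purmorphamine. In Pparg-cKO pools Mrc1 went from 14.27 and 14.09 to 12.64 and 12.58. The 4 purmorphamine pools were all below the 4 DMSO pools, and the fall was 3.43-fold in control ureters (log2 -1.78, SE 0.12, adjusted p = 0.0213, limma) and 2.97-fold in Pparg-cKO ureters (log2 -1.57, SE 0.12, adjusted p = 0.0152). Its probe lies at chr2:14253273-14253332 (plus strand, mm9).

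Msr1, the class A scavenger receptor for modified lipoproteins, stood at 14.07 and 13.74 in control DMSO pools and at 13.05 and 12.49 with purmorphamine. In Pparg-cKO ureters it stood at 13.93 and 13.89, then at 12.87 and 12.72. The pools of the 2 treatments were apart in both genotypes, with log2 differences of -1.13 and -1.11 (adjusted p = 0.0373 and 0.0198, limma), and its other probe gave -1.24 and -1.42. Mrc1, Msr1 and Fcgr2b, described with the Fc receptors below, were the 3 members lower by at least 1 log2 unit on all 4 arrays, as were 0.692% of all genes.

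Clec7a, the fungal glucan receptor dectin-1, had levels of 15.40 and 14.57 in control DMSO pools against 13.75 and 13.68 with purmorphamine. In Pparg-cKO ureters they were 15.69 and 14.79 against 14.69 and 14.45. Its pools did not overlap in either genotype, but the arrays of a genotype disagreed in size (-1.65 and -0.90, then -1.0 and -0.35), and neither difference passed the test (adjusted p = 0.0954 and 0.204, limma). Trem2, a lipid-sensing receptor of tissue macrophages, did not pass the test (-0.45 and -0.34, adjusted p = 0.291 and 0.402, limma), with 15.13 and 14.66 against 14.63 and 14.25 in control ureters. Its ratios in Pparg-cKO ureters were -0.70 (male array) and 0.03 (female array), where the levels were 15.04 and 14.62 with DMSO and 14.34 and 14.64 with purmorphamine.

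Among the Fc receptors and their adaptors, the 2 called members were both low-affinity IgG receptors. Fcgr2b, the inhibitory receptor, fell from 14.34 and 13.37 to 12.51 and 11.81 in control ureters. It fell from 13.96 and 13.41 to 12.23 and 11.93 in Pparg-cKO ureters. The purmorphamine pools all lay below the DMSO pools, by 3.24-fold (log2 -1.70, SE 0.13, adjusted p = 0.0213, limma) and 3.05-fold (log2 -1.61, SE 0.13, adjusted p = 0.0153), with the probe at chr1:172890988-172891047 (minus strand, mm9).

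Fcgr3, an activating receptor also encoded on chromosome 1, fell from 15.69 and 15.10 to 14.56 and 13.95 in control ureters. The levels in Pparg-cKO ureters were 15.64 and 15.14 with DMSO and 14.53 and 14.35 with purmorphamine. These are log2 differences of -1.14 and -0.95 (adjusted p = 0.0388 and 0.0302, limma). Both Fc receptors share sequence, and cross-hybridization between their probes was not tested.

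Tyrobp, the adaptor DAP12 that signals for TREM2 and other receptors, stood at 15.76 and 15.04 against 15.12 and 14.68 in control ureters and at 15.60 and 15.29 against 14.95 and 15 in Pparg-cKO ureters. Its differences of -0.50 and -0.47 did not pass the test (adjusted p = 0.169 and 0.149, limma). Fcer1g, the common Fc receptor gamma chain, gave -0.69 and -0.76 (adjusted p = 0.131 and 0.0779). Fcgr1, the high-affinity IgG receptor, was dim, with 7.81 and 7.03 against 7.27 and 6.61 in control ureters. In Pparg-cKO ureters it was at 6.62 and 6.69 with DMSO and not well above background with purmorphamine, at 6.40 and 6.31, which puts the DMSO pools at least 1.15-fold higher (adjusted p = 0.206, limma).

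All 3 chains of complement C1q fell in both genotypes. C1qa went from 15.43 and 14.85 to 14.63 and 13.95 in control ureters and from 15.37 and 15.30 to 14.47 and 14.34 in Pparg-cKO ureters. C1qb went from 14.79 and 14.21 to 13.73 and 13.29, and from 14.67 and 14.58 to 13.66 and 13.62. C1qc went from 15.84 and 15.39 to 14.90 and 14.42, and from 15.78 and 15.62 to 14.67 and 14.66. Over the 3 genes and 4 arrays the log2 ratios of C1qa, C1qb and C1qc were between -1.10 and -0.80. In the order C1qa, C1qb and C1qc, the differences in control ureters were -0.85, -0.99 and -0.96 (adjusted p = 0.0457, 0.0382 and 0.0388, limma) and in Pparg-cKO ureters -0.93, -0.99 and -1.03 (adjusted p = 0.0221, 0.0203 and 0.0185). The genes are neighbors, with probes at chr4:136452409-136452468 for C1qa, chr4:136436578-136436637 for C1qb and chr4:136445766-136445825 for C1qc (minus strand, mm9).

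Of the phagocyte NADPH oxidase, which makes superoxide, Ncf4 fell and the catalytic subunit did not pass the test. Ncf4, the cytosolic subunit p40phox, went from 12.81 and 12.34 to 11.92 and 11.34 in control ureters, a difference of -0.95 (adjusted p = 0.0392, limma). In Pparg-cKO ureters Ncf4 went from 12.59 and 12.57 to 11.74 and 11.83, a difference of -0.79 (adjusted p = 0.0311). Cybb, the membrane-bound catalytic subunit gp91phox, stood at 11.82 and 11.22 against 11.40 and 11.25 in control ureters and at 11.87 and 11.54 against 11.45 and 11.63 in Pparg-cKO ureters. Its male arrays gave -0.42 in both genotypes and its female arrays 0.03 and 0.09, so that the pools overlapped. Ncf1, the organizer subunit p47phox, gave -0.54 and -0.64 (adjusted p = 0.16 and 0.0909).

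Among the macrophage identity genes, Aif1 and Cd14 were called. Aif1, which encodes the actin-bundling protein IBA1 used to stain macrophages, went from 13.17 and 12.38 to 12.17 and 11.60 in control ureters. Its Pparg-cKO levels were 13.21 and 13.01 with DMSO and 12.30 and 12 with purmorphamine. The falls of -0.89 and -0.96 passed the test in both genotypes (adjusted p = 0.0473 and 0.0242, limma).

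Cd14, the co-receptor for lipopolysaccharide, went from 14.35 and 13.84 to 13.45 and 12.88 in control ureters, a difference of -0.93 (adjusted p = 0.0473). With levels of 13.79 and 13.70 against 13.27 and 12.91, its difference of -0.66 in Pparg-cKO ureters stood just outside the threshold (adjusted p = 0.0507). Csf1r stood at 15.02 and 14.97 against 14.49 and 13.77 in control and at 15.21 and 14.99 against 14.32 and 14.34 in Pparg-cKO ureters. Its purmorphamine pools were below its DMSO pools in both genotypes, by -0.87 and -0.77, without passing the test (adjusted p = 0.113 and 0.0976), and its 2 dimmer probes gave -0.69 and -0.84 in control and -0.41 and -0.65 in Pparg-cKO ureters.

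The other identity genes did not pass the test. Cd68, a lysosomal membrane glycoprotein, had levels of 15.95 and 15.55 against 15.59 and 15.09 in control ureters and of 15.79 and 15.69 against 15.32 and 15.49 in Pparg-cKO ureters. Lyz2, the lysozyme of macrophages, had 16.16 and 15.86 against 15.92 and 15.57, and 16.22 and 15.78 against 15.66 and 15.63. Their differences were -0.41 and -0.33 for Cd68 and -0.26 and -0.35 for Lyz2, with adjusted p from 0.175 to 0.38 (limma). Mpeg1, a pore-forming protein of phagocytes, was at 14.93 and 14.51 against 14.72 and 14.24 in control ureters and at 15.17 and 14.67 against 14.70 and 14.84 in Pparg-cKO ureters, where it was the member nearest to 0 (-0.15). Itgax, the integrin CD11c, was at 13.02 and 12.63 against 12.41 and 12.42, and at 12.73 and 12.48 against 12.28 and 12.48. Itgam, the integrin CD11b, had 13.56 and 13.20 against 12.95 and 12.65, and 13.19 and 13.40 against 12.80 and 13.19. The differences of Itgax and Itgam lay between -0.58 and -0.23, and those of Ctss, the lysosomal protease cathepsin S, were -0.55 and -0.43. The dimmer probes of Itgam gave -0.91 and -0.69 in control and -0.55 and -0.24 in Pparg-cKO ureters.

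Of the pan-leukocyte genes, Cd53 fell in both genotypes and Coro1a in Pparg-cKO ureters. Cd53, a tetraspanin of leukocytes, went from 14.67 and 14.11 to 13.78 and 13.29 in control ureters and from 14.73 and 14.46 to 14.01 and 13.93 in Pparg-cKO ureters. These differences of -0.86 and -0.62 lay just inside the threshold (adjusted p = 0.0476 and 0.0496, limma). Coro1a, an actin regulator of leukocytes, had 13.48 and 12.83 against 12.92 and 12.32 in control ureters, a difference of -0.53 (adjusted p = 0.0923). Its levels in Pparg-cKO ureters were 13.48 and 13.56 against 12.76 and 12.78, a fall of 0.75 on the log2 scale (adjusted p = 0.032).

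Ptprc, which encodes the leukocyte common antigen CD45, stood at 10.76 and 10.48 against 10.10 and 9.90 in control and at 10.62 and 10.7 against 10.03 and 10.33 in Pparg-cKO ureters. Spi1 stood at 11.32 and 10.51 against 10.30 and 9.86, and at 10.69 and 10.68 against 9.88 and 10.02. The purmorphamine pools of both genes lay below their DMSO pools in each genotype, by -0.62 and -0.48 for Ptprc (adjusted p = 0.0884 and 0.0905, limma) and by -0.84 and -0.73 for Spi1 (adjusted p = 0.071 and 0.0536). Laptm5, a lysosomal protein of hematopoietic cells, varied most between arrays, with 10.72 and 11.37 against 10.25 and 9.55 in control and 11.40 and 11.49 against 11.41 and 10.37 in Pparg-cKO ureters. The remaining Cd52, Cd48 and Itgb2 had differences of -0.95 to -0.30 with adjusted p of 0.0742 to 0.414.

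**Figure D3:**
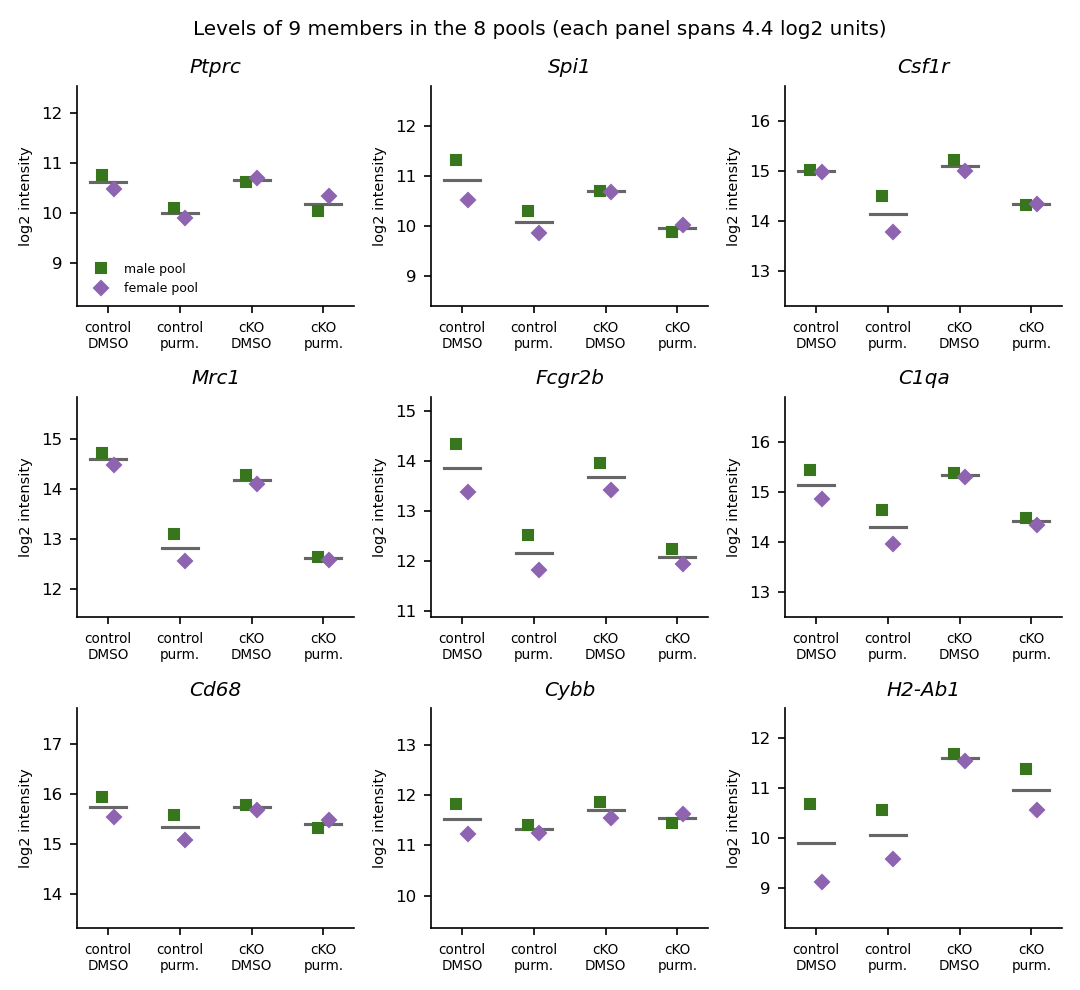
Log2 intensity (y axis, the same span of 4.4 units in every panel) of 9 members in the 8 pools, grouped by genotype and treatment (x axis; purm., purmorphamine; cKO, Pparg-cKO). Squares are male and diamonds female pools, and the bar is their mean. Mrc1 and Fcgr2b show purmorphamine pools apart from DMSO pools, Cybb shows overlapping pools, and the Pparg-cKO pools of H2-Ab1 with DMSO lie above both control pools.

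The MHC class II genes, which present antigen to T cells, had no called member. H2-Ab1 had 10.67 and 9.12 against 10.55 and 9.58 in control ureters, and 11.67 and 11.54 against 11.37 and 10.55 in Pparg-cKO ureters. H2-Aa had 9.92 and 8.57 against 9.85 and 8.85, and 10.98 and 10.67 against 10.91 and 9.94. H2-Eb1 had 9.15 and 8.53 against 8.86 and 8.66, and 9.20 and 9.31 against 9.03 and 8.93. In control ureters the DMSO and purmorphamine pools of these 3 genes overlapped, and the log2 differences of 0.17, 0.11 and -0.08 were the 3 highest of all members.

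Cd74, the invariant chain that guides MHC class II, stood at 11.32 and 9.58 against 10.41 and 9.22 in control and at 11.33 and 11.13 against 10.97 and 10.07 in Pparg-cKO ureters. The largest difference between the genotypes in the response of any member was that of H2-Ab1, at -0.82 (95% interval -1.63 to 0.00, adjusted p = 1, limma).

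No member and no gene of the whole array passed the test of a difference in response between the genotypes (0% of 20231 genes, limma). At an unadjusted p under 0.05, 0 members were higher and 1 lower, beside 1.58% and 1.73% of genes, and by sign 25 were higher and 11 lower (44.6% and 55.4%). For Mrc1 the difference of the effects was 0.20 (95% interval -0.24 to 0.65), for Fcgr2b 0.09 (-0.37 to 0.55), for Msr1 0.02 (-0.40 to 0.43) and for C1qb 0.00 (-0.37 to 0.37). For Clec7a and Laptm5, with 0.60 (-0.28 to 1.48) and 0.59 (-0.88 to 2.05), the intervals included differences over 1 log2 unit. Averaged over both genotypes, a comparison added after the data were seen, 23 of 36 members fell and 0 rose (beside 7.52% and 6.01% of all genes), among them Spi1 (-0.79), Csf1r (-0.82), Ptprc (-0.55) and Tyrobp (-0.49). The 13 others included Cd68 (adjusted p = 0.051), Lyz2 (0.1), Trem2 (0.13), Cybb (0.42) and all 4 MHC class II genes.

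No member passed the test between the genotypes. With DMSO, 0 of 36 members rose and 0 fell with the loss of Pparg at an adjusted p under 0.05 (limma, separate channels), beside 1.91% and 1.77% of all genes, and at an unadjusted p under 0.05, 2 were higher and 1 lower (8% and 7.77%). By sign 23 were higher (50.9% of all genes) and 13 lower (49.1%), and the median log2 difference was 0.06, against 0.00 for all genes. With purmorphamine, 0 and 0 passed, beside 1.15% and 1.72% of genes, 2 and 0 at an unadjusted p under 0.05 (6.69% and 8.91%), 28 and 8 by sign (49.2% and 50.8%), and the median was 0.14. These comparisons use the same pools as those of purmorphamine with DMSO and are not independent of them.

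With DMSO, the MHC class II genes had the highest values of Pparg-cKO over control ureters among the members, while with purmorphamine Laptm5 (0.99) and Clec7a (0.85) lay above Cd74 (0.70) and H2-Eb1 (0.22). With DMSO, H2-Ab1 was higher by 1.00 between the male and by 2.43 between the female pools, and H2-Aa by 1.06 and 2.10. Both Pparg-cKO pools exceeded both control pools, but the means of 1.71 and 1.58 did not pass the test (adjusted p = 0.187 and 0.209, limma; unadjusted 0.017 and 0.02). H2-Ab1 and H2-Aa were the 2 members that passed the filter of the methods with DMSO (2.59% of genes), and with purmorphamine they passed it again together with Cd74, Clec7a and Laptm5 (3.06%), while 0 members passed it as lower (2.92% and 3.23%). Cd74 gave 0.01 and 1.55, and H2-Eb1 0.05 and 0.78 in the male and female pools. The 2 female control pools were the lowest of the 8 pools for H2-Ab1, H2-Aa and Cd74, and without the female control array the DMSO differences of H2-Ab1, H2-Aa and Cd74 were 0.93, 0.90 and -0.09. Ciita, the transcription factor that controls MHC class II genes, gave 0.04 (adjusted p = 0.9), and of 4 other MHC class II pathway genes tested 0 were called.

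At the other end of the genotype comparison were Fcgr1, Mrc1, Cd14 and Spi1. With DMSO, Fcgr1 gave -1.20 and -0.33 (mean -0.77, adjusted p = 0.268, limma), Mrc1 -0.43 and -0.39 (mean -0.41, adjusted p = 0.36) and Cd14 -0.56 and -0.14 (mean -0.35, adjusted p = 0.601). With purmorphamine, Fcgr1 was at least 1.4-fold lower in Pparg-cKO ureters, where it was not well above background (adjusted p = 0.39), and Mrc1 and Spi1 gave -0.21 and -0.13. Laptm5 and Clec7a were higher with purmorphamine by 0.99 and 0.85, without passing the test (adjusted p = 0.296 and 0.294). The pools did not overlap for 4 members that were higher and 3 that were lower with DMSO, where 21% and 21.6% of all genes did so, and for 8 and 1 with purmorphamine, where 23.2% and 24.5% did.

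The male and female pools of control ureters differed throughout the members. In control ureters 35 of 36 members were higher in the male than in the female pool, with DMSO (median 0.57) and with purmorphamine (median 0.48), where 51.1% and 49.2% of all genes were. The dyes of the pools were opposite in the 2 treatments, so the direction was the same under both labelings, while sex, animals and array cannot be told apart. In Pparg-cKO ureters 30 members were higher in the male pool with DMSO (median 0.19, beside 53.5% of all genes) and 19 with purmorphamine (median 0.02, beside 45.1%). The mean log2 level of the 36 members was 13.50 and 12.90 in control pools with DMSO, 13.44 and 13.25 in Pparg-cKO pools with DMSO, 12.74 and 12.26 in control and 12.74 and 12.66 in Pparg-cKO pools with purmorphamine. The genotype difference therefore turned with the control array kept: 32 of 36 members were higher in Pparg-cKO ureters with DMSO without the male control array (median 0.31) and 30 lower without the female control array (median -0.16).

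**Figure D4:**
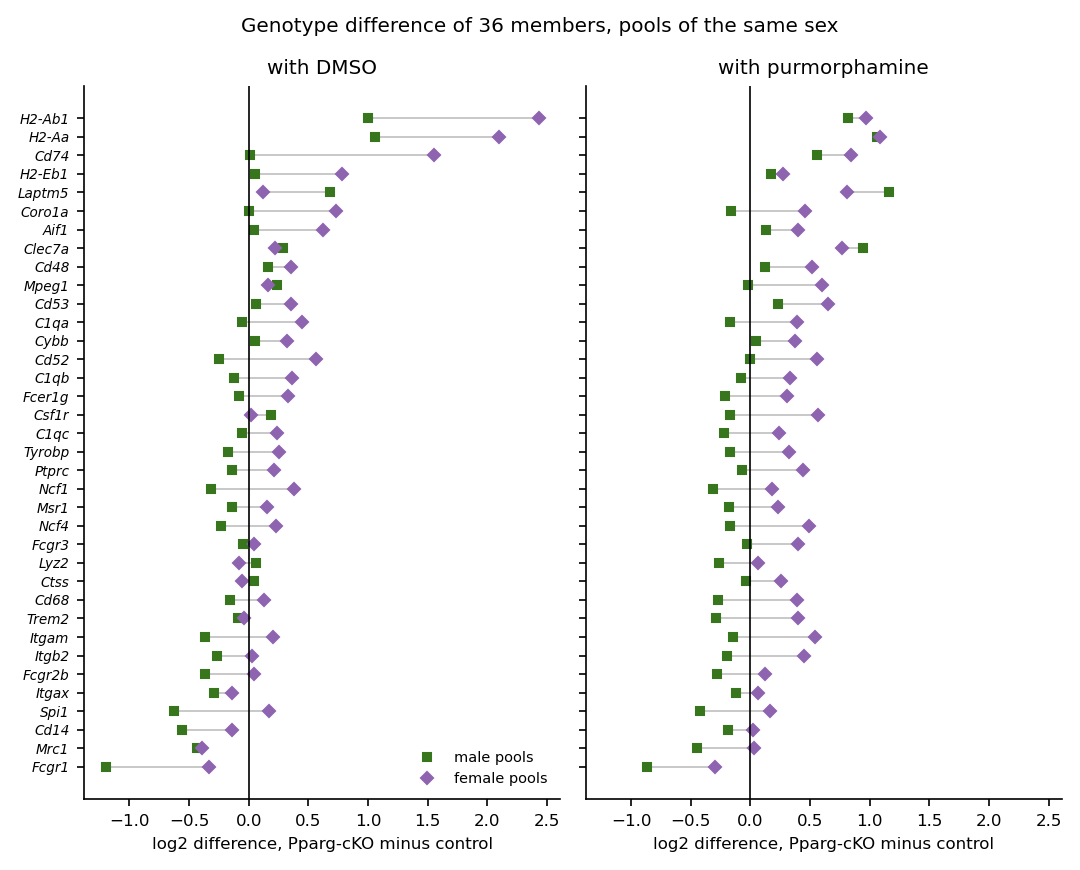
Log2 difference of Pparg-cKO minus control ureters (x axis) for the 36 members (y axis, ordered by the mean difference with DMSO), with DMSO (left) and with purmorphamine (right). Squares are the male and diamonds the female pools, joined by a line, and for most members the female value lies to the right of the male value. H2-Ab1 and H2-Aa lie to the right of 0 in both sexes and treatments, as do several other members, among them Laptm5 and Clec7a.

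Further macrophage genes were taken from a list of 26 chosen with earlier results of these data known. Of 24 tested, 2 fell with purmorphamine in control ureters (beside 0.919% of all genes) and 5 in Pparg-cKO ureters (beside 2.81%), 0 rose, and the medians were -0.74 and -0.77 against 0.02 and 0.00 over all genes. Adgre1, which encodes a surface antigen typical of mouse macrophages, gave -1.12 (adjusted p = 0.0584, limma) and -1.06 (adjusted p = 0.0398). Folr2, a folate receptor of resident macrophages, fell by 0.99 and by 0.75, and Tlr4, the receptor for lipopolysaccharide, fell by 1.20 and by 0.71. Pf4, a chemokine made by platelets and macrophages, gave -1.36 (adjusted p = 0.0583) and fell by 1.80 in Pparg-cKO ureters (adjusted p = 0.0216), where C5ar1, the receptor for complement C5a, also fell (-0.97, adjusted p = 0.0469). Lyve1, shared with lymphatic endothelium, was at the other end with 0.76 and 0.65 (adjusted p = 0.201 and 0.226).

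Of 7 genes for receptors and ligands that sustain myeloid cells, 1 fell in control and 2 in Pparg-cKO ureters, beside 0.919% and 2.81% of all genes. Csf2rb, the common beta chain of the receptors for GM-CSF and IL3, fell from 13.97 and 13.31 to 12.72 and 11.99 in control ureters (-1.29, adjusted p = 0.0229, limma) and from 13.35 and 13.19 to 12.24 and 12.15 in Pparg-cKO ureters (-1.08, adjusted p = 0.0176). Csf2, which encodes GM-CSF, fell in Pparg-cKO ureters from 8.06 and 8.46 to 6.66 and 6.51 (-1.67, adjusted p = 0.0346, limma). Only 1 of these Csf2 purmorphamine pools was well above background. In control ureters Csf2 gave -0.94 (adjusted p = 0.136). The CSF1R ligands did not pass the test, with -0.29 and -0.45 for Csf1 and 0.14 and -0.39 for Il34. The ratio of Csf1 was below 0 on all 4 arrays.

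Csf3, which encodes the granulocyte growth factor G-CSF, was the gene of this list that rose with the loss of Pparg. Its levels were 6.97 and 6.82 in control and 8.26 and 7.94 in Pparg-cKO ureters with DMSO (1.20, adjusted p = 0.0101, limma), and 6.52 and 6.49 against 8.37 and 8.07 with purmorphamine (1.71, adjusted p = 0.00574). The pools of the genotypes were apart under both treatments. Il10, an anti-inflammatory cytokine, also rose with the loss of Pparg with DMSO, from 6.6 and 6.99 to 8.10 and 7.65 (1.08, adjusted p = 0.0403), and fell with purmorphamine in Pparg-cKO ureters (-0.68, adjusted p = 0.047).

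Genes of macrophage activation included large falls with purmorphamine. Of 15 genes, 4 were called lower in control (beside 0.919% of all genes) and 6 in Pparg-cKO ureters (beside 2.81%). None was called higher (beside 0.282% and 1.85%), and the medians were -0.66 and -0.53 against 0.02 and 0.00 over all genes. Arg1, the arginase of alternatively activated macrophages, went from 14.85 and 12.76 to 12.31 and 10.31 in control ureters and from 13.02 and 13.93 to 10.01 and 9.97 in Pparg-cKO ureters, by -2.50 and -3.49 (adjusted p = 0.0334 and 0.0142, limma). Retnla, another gene of that state, went from 11.80 and 11.66 to 9.04 and 8.55, and from 8.66 and 10.33 to 7.25 and 8.54, by -2.93 and -1.6 (adjusted p = 0.0153 and 0.0178). Il1b, a cytokine of inflammatory macrophages, went from 10.49 and 9.85 to 8.06 and 7.70, and from 9.95 and 9.53 to 7.68 and 7.17, by -2.29 and -2.31 (adjusted p = 0.0153 and 0.0108). Arg1, Retnla and Il1b were lower with purmorphamine on all 4 arrays.

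Chil3, a chitinase-like protein of alternatively activated macrophages, had 11.97 and 9.55 against 6.98 and 6.28 in control ureters (-4.13, adjusted p = 0.0797). In Pparg-cKO ureters Chil3 had 9.92 and 13.89 against 6.37 and 7.80 (-4.82, adjusted p = 0.0367, limma), with ratios of -3.55 and -6.09 on the male and female arrays. Only 1 of these purmorphamine pools was well above background. The 13.89 is from the female DMSO pool that neutrophil genes set apart (below), and the part of neutrophils in it was not tested. Marco, a scavenger receptor, was called in control ureters (-1.05, adjusted p = 0.046) and Cd86, a co-stimulator of T cells, in Pparg-cKO ureters (-1.44, adjusted p = 0.0203). Nos2, the inducible nitric oxide synthase, was the highest of the list at 0.41 and 0.30, and Gpnmb, a lysosomal glycoprotein of phagocytes, gave 0.03 and 0.05, none of them past the test.

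**Figure D5:**
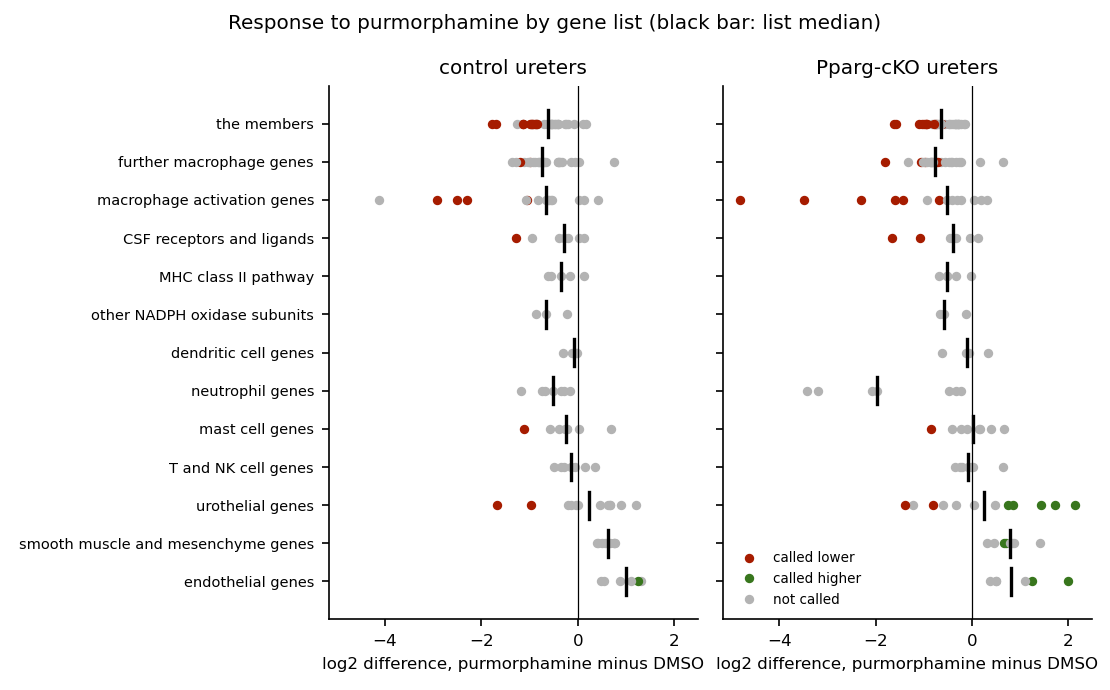
Log2 difference between purmorphamine and DMSO (x axis) for each tested gene of the members and of 12 other lists (y axis), in control (left) and Pparg-cKO ureters (right). Red points were called lower, green points higher and gray points neither, and the black bar is the median of the list. Medians of the members and of the macrophage lists lie below 0, and those of the smooth muscle and endothelial lists above 0.

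Markers of other leukocytes were examined beside the members. Of 13 T and NK cell genes, 7 could be tested, Cd3d and Cd8a were not well above background, and 0 were called for purmorphamine, while Cd3e, a chain of the T cell receptor complex, was lower in Pparg-cKO ureters with purmorphamine (-1.01, adjusted p = 0.0197, limma) (medians -0.14 and -0.08; mean log2 level 8.65 to 9.04 over the pools). Of the B cell genes, 2 could be tested and neither was called. Mast cell genes were bright, at a mean of 10.78 to 11.81, and apart from Hdc, the histidine decarboxylase that makes histamine (-1.12 and -0.86, adjusted p = 0.0473 and 0.0455, limma), none of 8 was called, with medians of -0.24 and 0.02. Dendritic cell genes had 4 of 7 tested and medians of -0.08 and -0.10. Beside these counts, 0.919% and 2.81% of all genes fell with purmorphamine in control and Pparg-cKO ureters, and 0.282% and 1.85% rose. Between the genotypes with purmorphamine, 1.72% of all genes were called lower. With lists this short and shares this low, the absence of calls cannot set these lists apart from other genes.

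Neutrophil genes set the female Pparg-cKO pool with DMSO apart. The mean log2 level of the 7 tested of 10 was 11.52 in that pool and between 8.02 and 9.22 in the others. S100a8 and S100a9, the calprotectin subunits abundant in neutrophils, reached 13.33 and 14.87 there, against at most 9.17 and 9.56 in any other pool. The list had medians of -0.51 and -1.97 with purmorphamine and 0 calls, beside 0.919% and 2.81% of all genes called lower. The part of neutrophils in the members' values of that pool was not tested. The mean log2 level of 2 erythroid genes was also highest in that pool, at 8.53, against 6.53 to 7.45 in the others.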

How the data were processed

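Total RNA from sex-sorted pools of cultured ureters was labeled with AlexaFluor555 or AlexaFluor647 and hybridized to 4 Agilent two-color arrays by the authors. The deposited scanner files give the intensity of each spot and dye, read with Feature Extraction (12.2.0.7 per the file headers, 10.7.3.1 in the submitters' processing notes). The deposited value table holds a score per probe and array, a signed fold change whose normalization is not given in the sources used here, and correlated at 0.970 to 0.977 with the log2 ratios of the scanner signals. All arrays were on 1 slide and in 1 scan, so a block for slide or scan could not be run.

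From mean and local background signals, normexp (offset 50), loess within arrays and Aquantile between arrays were computed in R 4.3.3 with limma 3.58.1, averaging the 4 spots of a probe and taking the brightest probe of a gene. Of 39429 probes, 27066 well above background entered the tests. Purmorphamine was tested on within-array ratios, and genotype with separate channels (intraspot correlation 0.0636), with Benjamini-Hochberg adjustment over all probes. The filter of the study's methods used processed signals scaled to a 75th percentile of 1500. The fits for genotype and for purmorphamine in control ureters were run on simulated data. Purmorphamine in Pparg-cKO ureters, the difference in response and the filter of the methods were not checked in that way. Intensities carry no counts, and precision is limited by the 2 pools per group.

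Replicate numbers mark sex and dye orientation, and no animals were shared between genotypes. Over genes, deviations of same-numbered pools correlated at -0.15 between genotypes with DMSO and at 0.47 with purmorphamine. The members and gene lists were chosen with earlier results of these data known. Per-pool values are given for 12 fixed members, each called member and the 3 with the largest difference each way in each comparison. Context genes were named where called or largest in their list. The alternatives were processed signals, offset 16, no filter on dim probes, the mean of probes, each array left out, a replicate block, other normalization between arrays and the value table. Promoter sequences are RefSeq's (GRCm38.p6).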

Additional observations from a re-analysis of the deposited data

How the results depend on the processing

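The median difference of the members between purmorphamine and DMSO stayed below 0 under every alternative run, but the calls did not. Members called lower (11 in each genotype) were 0 in control and 0 in Pparg-cKO ureters with processed signals and with the value table, where 0 genes of the whole array were called and the members had 20 to 24 with an unadjusted p under 0.05 in limma. In control ureters they were 7 with offset 16, where 154 genes of the whole array were called lower in place of 186. With no filter on dim probes they were 0, as were the genes called lower over the whole array. Averaging both genotypes, added after seeing the data, gave 23, with H2-Aa at -0.15 and H2-Ab1 at -0.24 against 0.11 and 0.17 in control ureters. Fcgr1 in Pparg-cKO ureters was at 0.00 with processed signals and the value table. The causes were not tested.

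Leaving out each array in turn gave 0 to 12 called members in control and 2 to 13 in Pparg-cKO ureters. A genotype left with 1 array was assumed to vary like the other, with the intraspot correlation of all arrays. The members' median ranged from -0.16 to 0.31 for genotype with DMSO and from -0.03 to 0.21 for the difference in response. Values that changed sign ranged from -0.48 to 0.06 for Mrc1, -0.35 to 0.09 for Spi1 (genotype with purmorphamine), and -0.29 to 0.13 for H2-Eb1, -0.42 to 0.03 for Cybb, -0.07 to 0.28 for H2-Aa, -0.12 to 0.46 for H2-Ab1 (purmorphamine in control ureters), and -0.09 to 1.64 for Cd74 (genotype with DMSO), and -0.08 to 1.26 for Laptm5 (the difference in response), and -0.47 to 0.17 for Mpeg1, -0.70 to 0.03 for Trem2, -0.42 to 0.09 for Cybb, -1.13 to 0.01 for Laptm5 (purmorphamine in Pparg-cKO ureters). With 1 pair in place of both, the filter of the methods was looser for all genes. For genotype with DMSO it gave 3 to 6 members higher and 0 to 2 lower. Over the whole array 1261 to 1423 and 971 to 1111 genes passed, against 399 and 450 with both pairs. With purmorphamine 5 to 9 members were higher, beside 818 to 1056 genes (468 with both pairs). For purmorphamine in Pparg-cKO ureters 18 to 22 members were lower, beside 1044 to 1558 genes (738 with both pairs). A 2-fold threshold gave 1 member higher for genotype with purmorphamine, beside 154 genes. For purmorphamine in control and Pparg-cKO ureters it gave 4 and 3 members lower, beside 204 and 276 genes.

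Replicate numbers stand for sex and dye orientation together. The replicate block gave 8 called members in control (6 of the 11) and 13 in Pparg-cKO ureters (10 of the 11), and 0 for genotype, where it moved the calls over all genes with DMSO from 387 higher and 359 lower to 178 and 126. A crossed pairing, added after seeing the data, gave 111 and 66, with 0 members. Without normalization between arrays the median of all genes moved to -0.15 for both genotype comparisons, and 26 of 36 members lay below 0 with DMSO.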
